A study of Homo sapiens with 2 samples.

Results

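Among the paclitaxel-resistant SUM159 cells grown attached, 409 of 5896 cells (6.94%, exact 95% interval 6.30 to 7.62%) had no ABCB1 transcript counted. These are the ABCB1-negative cells described here. They were chosen by their ABCB1 count alone, as cells with 0 unique molecular identifiers (UMIs, tags that count each captured RNA molecule once) for that gene. They were compared with the 3944 cells of the same population with more than 5 ABCB1 UMIs, and the 1543 cells with 1 to 5 UMIs lie between both classes. SUM159 is a human triple-negative breast cancer cell line with mesenchymal features. The series holds 30122 cells from 6 populations, in which cells resistant to paclitaxel, cells resistant to doxorubicin and treatment-naïve cells were each grown attached or as spheroids, in a targeted panel read on the BD Rhapsody system. All attached cells share the wild type genotype and 1 medium, Ham's with serum, insulin and hydrocortisone. Resistance was built up over a long course of rising doses of 1 drug. For doxorubicin the paper describes exposure for days and then recovery without drug, similar to how the paclitaxel line was made. The 3 attached populations carried sample tags and ran together on 1 cartridge. Each population is 1 culture within 1 sample, so its cells share their source and no difference below has a replicate check.

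ABCB1 (chromosome 7, 87503017 to 87713295 on GRCh38, RefSeq annotation) encodes P-glycoprotein, a membrane pump that uses ATP to carry many unrelated compounds out of the cell. Paclitaxel, which stabilises microtubules, and doxorubicin, which poisons topoisomerase and intercalates in DNA, are both substrates of the pump. High ABCB1 is a classical route to multidrug resistance in cultured cancer cells, and ABCG2, another ATP-driven pump, exports a partly overlapping set of drugs.

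ABCB1 counts ran without a gap through the threshold that defines the cells. The population had a median of 10 ABCB1 UMIs per cell and a maximum of 720. Just at the lower threshold stood 409 cells with 0 UMIs and 388 cells with 1 UMI, and at the upper one 256 cells with 5 and 262 cells with 6. These counts chose the classes and are given only as a description. Treatment-naïve attached cells of the same cartridge had 0 ABCB1 UMIs in 63.3% of 5305 cells, 1 to 5 UMIs in 36.1% and more than 5 in 0.641%, at a median depth of 3710 UMIs per cell, while all paclitaxel-resistant attached cells had a median of 3653 UMIs. Low ABCB1 counts were thus also found in cells that were never exposed to the drug, and RNA free in the cartridge was not measured.

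A count of 0 limits the level in a cell but does not show that the gene was silent. The ABCB1-negative cells had a median of 3129 UMIs over all genes, where 3 UMIs, the upper limit that a 0 allows, would be 959 counts per 1000000 (CPM). At the mean level of the cells with more than 5 ABCB1 UMIs, 6190 CPM, a cell of that depth would be expected to hold 19.4 ABCB1 UMIs and the shallowest ABCB1-negative cell 6.15. At the treatment-naïve level of 146 CPM the median cell would be expected to hold 0.458 UMIs. The mean level of the cells with more than 5 ABCB1 UMIs was thus detectable. A level like that of treatment-naïve cells would often give a 0, as was found in 63.3% of those cells.

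**Figure D1:**
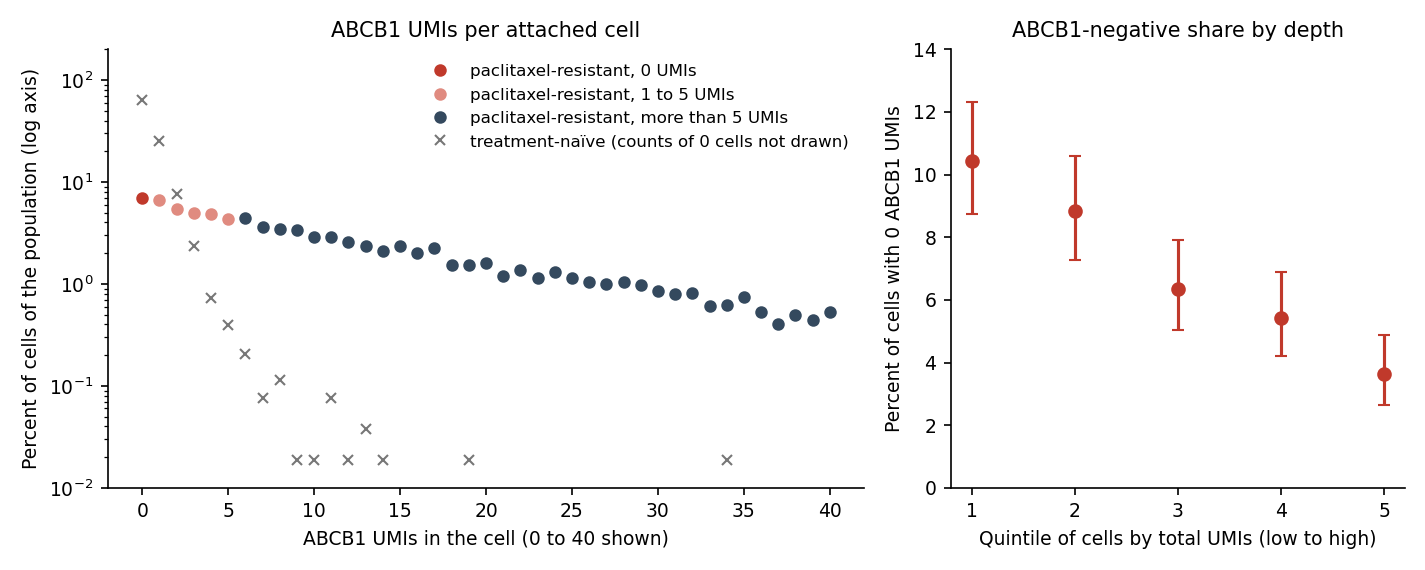
Left, percent of cells (log axis) at each ABCB1 count from 0 to 40 UMIs in paclitaxel-resistant attached cells, coloured by class, and in treatment-naïve attached cells (crosses). Right, percent of paclitaxel-resistant attached cells with 0 ABCB1 UMIs in each quintile of cells by total UMIs without ABCB1, with exact 95% intervals. The share stood at 10.4% in the shallowest quintile and at 3.65% in the deepest.

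The ABCB1-negative cells were shallower than the cells they were compared with. Their median of 3129 UMIs per cell (quartiles 2387 and 4104) stood against 3966 UMIs (3037 and 5162) in cells with more than 5 ABCB1 UMIs, and their median of 131 detected genes against 141. By quintiles of total UMIs, from shallow to deep, 10.4%, 8.82%, 6.36%, 5.43% and 3.65% of the cells were ABCB1-negative. When every cell was thinned to 1000 UMIs, the share of cells at 0 was 19.1%. Depth therefore moves with membership, and its part in each result below was not tested, except where values matched for depth are given.

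For every other gene, UMIs were summed over the cells of each class and expressed as CPM of the class total without ABCB1, 1383977 UMIs in ABCB1-negative cells and 16771685 UMIs in cells with more than 5. A ratio is the CPM of ABCB1-negative cells over the CPM of the cells with more than 5, with an exact 95% interval that covers counting error only. A gene counted as measured when at least 20 of its UMIs would fall in the smaller class at equal CPM, and it passed the size rule with a ratio of at least 1.5 in either direction and an interval that did not hold 1.

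The profiles of both classes were close to the same. Of 207 measured genes 1 was higher in ABCB1-negative cells (0.483%) and 4 were lower (1.93%). The ratio lay within 1.1-fold for 111 genes (53.6%), and its median size was 1.09-fold. KRT81, a hair-type keratin, was the higher gene. CCL3, DCN, CCL5 and ESM1, which encode 2 chemokines, a matrix proteoglycan and an endothelial proteoglycan, were the lower ones.

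**Figure D2:**
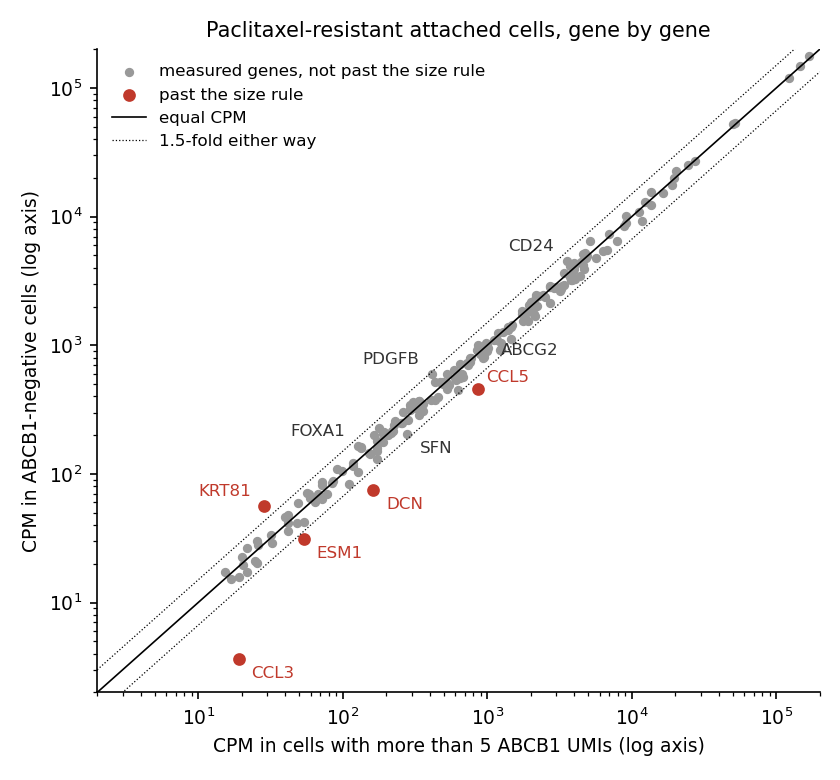
CPM of each of the 207 measured genes in ABCB1-negative cells (vertical, log axis) against cells with more than 5 ABCB1 UMIs (horizontal, log axis), with ABCB1 left out. Red points are the 5 genes past the size rule, the solid line marks equal CPM and the dotted lines a ratio of 1.5 in either direction. All genes but these 5 lie between the dotted lines.

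KRT81 (chromosome 12, 52285913 to 52291534) had 78 UMIs in ABCB1-negative cells, 56.4 CPM, against 475 UMIs, 28.3 CPM, in cells with more than 5 ABCB1 UMIs. The ratio was 1.99 (1.55 to 2.53). The UMIs came from 40 of 409 ABCB1-negative cells (9.78%) and from 328 of 3944 cells with more than 5 (8.32%). These shares are not matched for depth, and the ABCB1-negative cells were shallower. The richest 1% of cells held 38.5% of the KRT81 UMIs in ABCB1-negative cells and 34.9% in cells with more than 5. Without the richest 1% of each class the ratio was 1.88, and KRT81 still passed the size rule. Matched for depth, by weighting the cells with more than 5 to the depths of the ABCB1-negative ones, the ratio was 1.96 (1.52 to 2.52). KRT81 was also graded in the cells between, with 45.4 CPM in cells with 1 ABCB1 UMI, 36.1 CPM with 2 and 23.5 CPM with 3 to 5, after which it stayed between 25.9 and 29.6 CPM. KRT81 shares much sequence with other hair keratins, and the sources used here do not say how such reads were assigned.

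PDGFB (chromosome 22, 39223359 to 39244982), which encodes the B chain of platelet-derived growth factor, had the next largest ratio and did not pass the size rule. Its level was 597 CPM in ABCB1-negative cells against 414 CPM in cells with more than 5 ABCB1 UMIs, a ratio of 1.44 (1.34 to 1.55) at full depth and 1.31 (1.21 to 1.41) matched for depth. Against the cells with more than 20 ABCB1 UMIs it was 1.61-fold higher and passed. In quintiles of depth the ratio was 0.97, 1.40, 1.36, 1.49 and 1.19 from shallow to deep, so the shallowest quintile, with 445 CPM against 459 CPM, showed no excess. After thinning to 1000 UMIs, 13.5% of ABCB1-negative cells held more than 1 PDGFB UMI, against 9.96% of cells with more than 5. The other genes of the PDGF system were level at full depth. PDGFA, the partner ligand, had a ratio of 1.01 (0.93 to 1.09), and the receptors PDGFRA and PDGFRB had 1.00 (0.98 to 1.03) and 0.96 (0.91 to 1.02). Matched for depth, PDGFA had 1.04 (0.96 to 1.13), while both receptors were slightly lower. PDGFRA then had 0.93 (0.91 to 0.96) and PDGFRB 0.86 (0.81 to 0.91).

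Among secreted and matrix genes, DCN (chromosome 12, 91140484 to 91182817), which encodes the collagen-binding proteoglycan decorin, had 104 UMIs, 75.1 CPM, in ABCB1-negative cells against 2734 UMIs, 163 CPM, in cells with more than 5 ABCB1 UMIs. It was 2.17-fold (1.78 to 2.66) lower, and 2.30-fold (1.89 to 2.83) lower matched for depth. A DCN transcript was found in 12.7% against 19.5% of cells. The level rests on few cells. In the class with more than 5 UMIs the richest 1% of cells held 51.5% of the DCN UMIs, and in the cells with 1 ABCB1 UMI a single cell held 604 of 735. Without the richest 1% of each class DCN was 1.59-fold lower and still passed the size rule. In the cells between, DCN had 575 CPM at 1 ABCB1 UMI, 95.9 at 2 and 94.0 at 3 to 5. Above them it had 157 CPM at 6 to 10, 99.8 at 11 to 20 and 207 above 20.

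COL3A1, a fibrillar collagen chain, had 445 CPM in ABCB1-negative cells against 624 CPM in cells with more than 5. The ratio was 0.71 (0.66 to 0.77) and did not pass the size rule, but it did when matched for depth, at 1.51-fold (1.39 to 1.64) lower. By quintiles of depth it was 0.48, 0.60, 0.61, 0.77 and 0.95, nearest to 1 in the deepest cells. COL1A1, the chain of type I collagen, stood at 2455 CPM against 2439 CPM. Of 25 mesenchymal and matrix genes measured, 1 passed as lower and none as higher, beside 4 lower and 1 higher of all 207 measured genes. Their median log2 ratio was -0.03, beside -0.03 over all measured genes, and their summed level was 406355 CPM against 406842 CPM.

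CCL5 (chromosome 17, 35871491 to 35880360), a chemokine that attracts leukocytes, had 461 CPM in ABCB1-negative cells against 857 CPM in cells with more than 5 ABCB1 UMIs. It was 1.86-fold (1.72 to 2.02) lower in the sums. A transcript was found in 53.5% against 59.2% of cells, and more than 5 UMIs in 11 of 409 against 145 of 3944 cells, so the sums are carried by a small set of rich cells. The richest 1% of cells held 40.4% of the CCL5 UMIs in ABCB1-negative cells and 61.4% in cells with more than 5. Without them the log2 ratio was -0.27 and CCL5 no longer passed the size rule. In the shallowest quintile of cells it ran the other way, with 1450 CPM against 1082 CPM, a ratio of 1.34 (1.19 to 1.51), while in the other quintiles the ratio lay between 0.24 and 0.35.

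CCL3 (chromosome 17, 36088256 to 36090143), another leukocyte chemokine, had 5 UMIs in ABCB1-negative cells, each in a different cell, against 320 UMIs in 88 cells with more than 5 ABCB1 UMIs. These are 3.61 CPM and 19.1 CPM, and CCL3 was 5.28-fold (2.24 to 16.4) lower. A pair of cells with 74 and 53 UMIs made up much of the larger sum. Without the richest 1% of each class the log2 ratio was -0.40 and CCL3 did not pass. The share of cells with a transcript was 1.22% against 2.23%. In the cells between, CCL3 was low as well, with 6.26 CPM at 1 ABCB1 UMI, 7.60 at 2 and 6.05 at 3 to 5. Above them it had 10.5 CPM at 6 to 10, 32.3 at 11 to 20 and 14.7 above 20. Of 13 inflammatory genes measured, CCL3 and CCL5 were lower and none was higher, beside 4 lower (1.93%) and 1 higher of all 207 measured genes. The median log2 ratio of these 13 was -0.03. IL6, a cytokine abundant in these cells, had 4055 CPM against 4015 CPM.

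ESM1 (chromosome 5, 54977867 to 54985593), which encodes the secreted proteoglycan endocan, had 43 UMIs, 31.1 CPM, in ABCB1-negative cells against 901 UMIs, 53.7 CPM, in cells with more than 5 ABCB1 UMIs. It was 1.73-fold (1.27 to 2.41) lower, and 1.67-fold (1.23 to 2.34) lower matched for depth. It was found in 24 of 409 cells (5.87%) against 515 of 3944 (13.1%). A single ABCB1-negative cell held 17 of the 43 UMIs, and without the richest 1% of each class the log2 ratio was -1.45 and ESM1 still passed the size rule. Along the ABCB1 classes its level was 31.1 CPM at 0 UMIs, 26.6 at 1, 20.9 at 2, 38.8 at 3 to 5, 40.3 at 6 to 10, 57.1 at 11 to 20 and 58.2 above 20. VEGFA, the main growth factor of blood vessels, stood at 5226 CPM against 4754 CPM. Of 8 angiogenic and hypoxia genes measured only ESM1 passed the size rule, as 1 of the 4 lower genes among all 207 measured.

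**Figure D3:**
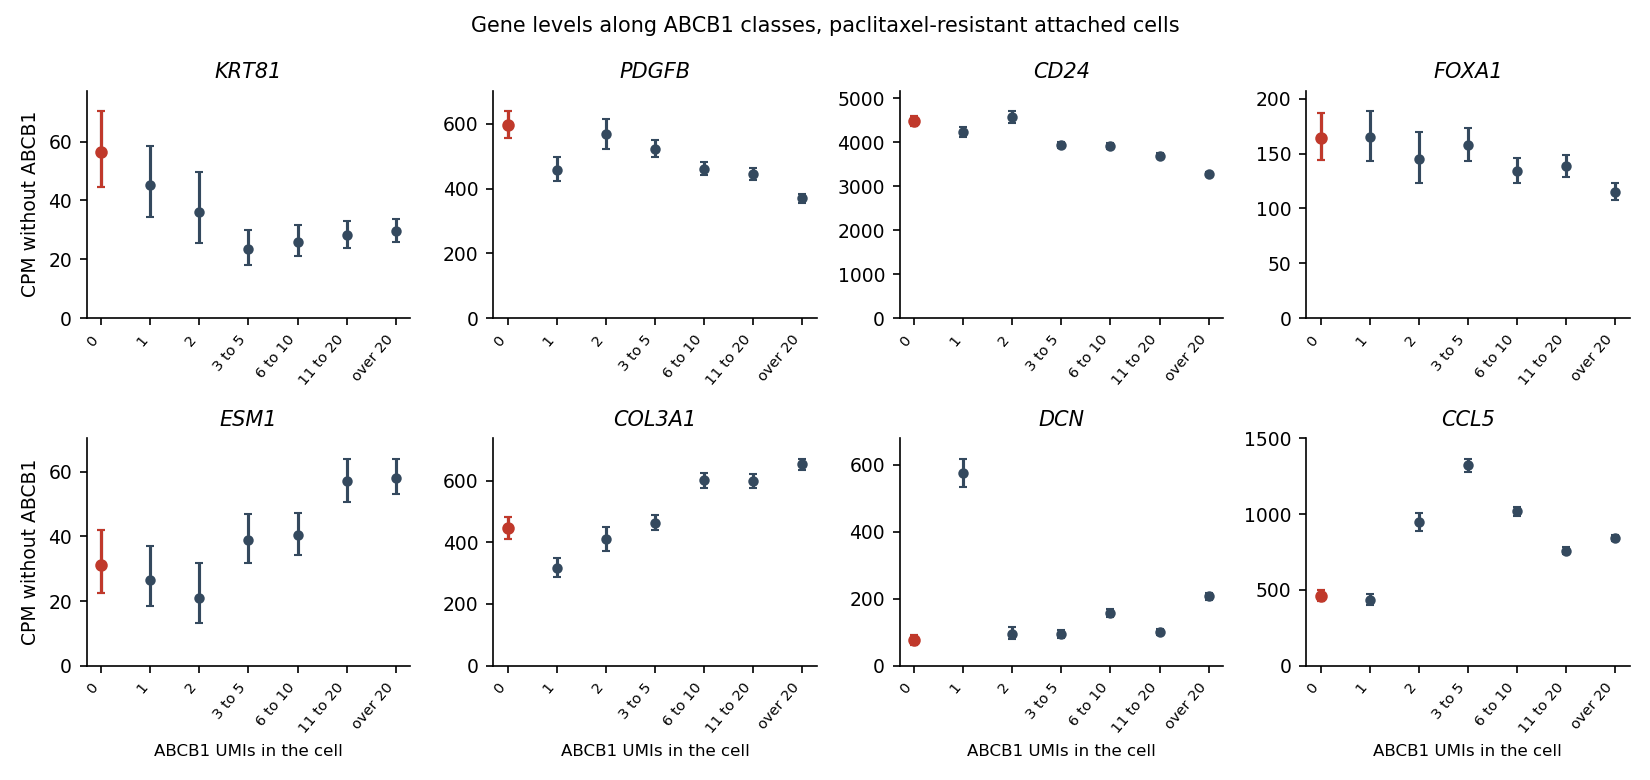
CPM without ABCB1 (vertical, from 0) of 8 genes in paclitaxel-resistant attached cells grouped by their ABCB1 UMIs, from 0 (red) to over 20, with exact Poisson 95% intervals that cover counting error only. KRT81 was highest at 0 UMIs, ESM1 and COL3A1 were higher in the upper classes, and the DCN point at 1 UMI rests on 1 cell.

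Transcripts of the other efflux pump were not more abundant where no ABCB1 UMI was found. ABCG2 (chromosome 4, 88090264 to 88231626) had 814 CPM (767 to 863) in ABCB1-negative cells against 949 CPM (934 to 964) in cells with more than 5 ABCB1 UMIs, a ratio of 0.86 (0.81 to 0.91) and 0.88 (0.83 to 0.94) matched for depth. Treatment-naïve attached cells had 126 CPM (121 to 131). No ABCG2 UMI was found in 97 of 409 ABCB1-negative cells (23.7%, exact 95% interval 19.7 to 28.1%), in 604 of 3944 cells with more than 5 (15.3%, 14.2 to 16.5%) and in 69.1% of treatment-naïve cells. Thinned to 1000 UMIs, the share without ABCG2 was 53.4% in ABCB1-negative cells and 48.0% in cells with more than 5. The 97 cells with neither pump were 1.65% of the population. The median depth of these 97 cells was 2703 UMIs, against 3304 UMIs in the 312 ABCB1-negative cells with an ABCG2 UMI.

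None of the 10 measured enzymes of nucleotide and drug metabolism passed the size rule. GSTP1, a glutathione transferase, had 25101 CPM in ABCB1-negative cells against 24365 CPM in cells with more than 5. AKR1C1, an aldo-keto reductase that can reduce the carbonyl group of anthracyclines, had 15596 CPM against 13486 CPM, a ratio of 1.16 (1.14 to 1.17). TYMS, thymidylate synthase, had a ratio of 0.84 (0.81 to 0.86), and RRM2, a subunit of ribonucleotide reductase, 0.78 (0.75 to 0.81). Matched for depth, TYMS was at 0.97 (0.94 to 0.99) and RRM2 at 0.96 (0.93 to 1.00). ARG2, an arginase of mitochondria named after its values were seen, had 286 CPM against 338 CPM, a ratio of 0.85 (0.76 to 0.94).

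Genes of mitosis had somewhat lower levels, and depth moved with this. All 17 measured members of the G2/M and mitosis list had a ratio below 1, from 0.75 to 0.93, but none passed the size rule. For 16 of the 17 the interval lay below 1, beside 66 of all 207 measured genes. Their summed level was 54841 CPM in ABCB1-negative cells against 65776 CPM in cells with more than 5 ABCB1 UMIs, and the median log2 ratio was -0.28 beside -0.03 over all measured genes. NUF2, which helps bind microtubules to the kinetochore, had 927 CPM against 1241 CPM. UBE2C, which works with the anaphase-promoting complex, had 3300 CPM against 4060 CPM. CENPA, the histone variant of centromeres, had 921 CPM against 1221 CPM.

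Matched for depth, most of that difference was gone. The median log2 ratio of the mitosis list was then -0.055, with UBE2C at 0.16 and CENPA at 0.05, both above 0, and NUF2 at -0.17. The interval then lay below 1 for 7 of the 17 genes and above 1 for 1, and the count over all measured genes at matched depth is not given here. In both classes the summed level was highest in the deepest quintile, at 101580 CPM in ABCB1-negative cells and 90609 CPM in cells with more than 5, against 44508 CPM and 46859.8 CPM in the shallowest. From shallow to deep the ratio of the summed levels was 0.95, 0.96, 0.77, 0.89 and 1.12. The G1/S list behaved alike, with a median log2 ratio of -0.17 at full depth and 0.01 matched for depth. At full depth its member CCNE2, a cyclin of S phase entry, had a ratio of 0.75 (0.64 to 0.87), while CCND1, the cyclin of early G1, had 1.05 (1.03 to 1.07). Matched for depth, CCNE2 had 0.93 (0.80 to 1.08) and CCND1 1.00 (0.98 to 1.02), and both intervals held 1.

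In the list of p53 targets and apoptosis genes, CDKN1A, an inhibitor of cyclin-dependent kinases, had 2619 CPM in ABCB1-negative cells against 3181 CPM in cells with more than 5. MDM2, the ligase that degrades p53, had 83.1 CPM against 111 CPM. BCL2L11, which promotes apoptosis, had 163 CPM against 133 CPM, and BCL2, which opposes it, 87.4 CPM against 85.2 CPM. Matched for depth, CDKN1A had a ratio of 0.84 (0.81 to 0.87) and MDM2 0.76 (0.63 to 0.93). BCL2L11 then had 1.12 (0.97 to 1.29) and BCL2 1.06 (0.87 to 1.28), and both intervals held 1. No gene of this list passed the size rule, beside 1 higher and 4 lower of all 207 measured genes.

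Epithelial genes split between members without a shift of either list. CD24, a surface glycoprotein of luminal cells, had 4487 CPM in ABCB1-negative cells against 3552 CPM in cells with more than 5 ABCB1 UMIs, a ratio of 1.26 (1.23 to 1.30) at full depth and 1.19 (1.16 to 1.22) matched for depth. FOXA1, a pioneer transcription factor of luminal cells, had 165 CPM against 127 CPM, a ratio of 1.30 (1.13 to 1.49) that stayed at 1.29 (1.12 to 1.48) matched for depth. KRT8, a simple epithelial keratin, ran the other way with 3899 CPM against 4700 CPM, as did SFN, an epithelial 14-3-3 protein, with 203 CPM against 280.2 CPM. At full depth their ratios were 0.83 and 0.72. Matched for depth, KRT8 had 0.88 (0.86 to 0.90) and SFN 0.86 (0.75 to 0.97), both nearer to 1. The median log2 ratio was 0.01 over 10 luminal genes and -0.03 over 9 basal genes. No luminal gene passed the size rule. Of the basal list only KRT81 did, beside 1 higher and 4 lower of all 207 measured genes.

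The ABCB1-negative cells had the expression profile of their own population and not that of treatment-naïve cells. Each attached cell was matched to the summed profile of the 3 attached populations over all genes but ABCB1 and ABCG2. Of the 409 ABCB1-negative cells 367 (89.7%, 86.4 to 92.5%) matched the paclitaxel-resistant profile, 38 the doxorubicin-resistant and 4 the treatment-naïve one. Of the 3944 cells with more than 5 ABCB1 UMIs 3595 (91.2%, 90.2 to 92.0%) matched the paclitaxel-resistant profile, 321 the doxorubicin-resistant and 28 the treatment-naïve one. Of 5305 treatment-naïve cells 5008 matched their own profile and 63 the paclitaxel-resistant one. The 4 cells that matched treatment-naïve cells were shallow, with 993 to 1532 UMIs. Thinned to 1000 UMIs per cell, 370 of 408 ABCB1-negative cells (90.7%) matched the paclitaxel-resistant profile. The profiles were built from sums that include the cells matched to them.

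Single genes gave the same picture. IGFBP3, which binds insulin-like growth factors, had 22.4 CPM in ABCB1-negative cells and 19.97 CPM in cells with more than 5 ABCB1 UMIs, against 2823 CPM in treatment-naïve cells. KRT14, a basal keratin, had 28.2 CPM and 25.9 CPM, against 3611 CPM in treatment-naïve cells. PTGS2, the inducible cyclooxygenase, had 322 CPM and 295 CPM, against 11800 CPM. Neither class came near the treatment-naïve levels of these genes.

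Genes chosen as at least 5-fold apart between the whole paclitaxel-resistant and treatment-naïve populations were scored together. Of the 30 that are higher in treatment-naïve cells 12 were measured here. Their median ratio between ABCB1-negative cells and cells with more than 5 was 1.08. By the size rule none was higher, and CCL3 and CCL5 were lower, beside 4 lower of all 207 measured genes (1.93%). Of the 14 that are higher in paclitaxel-resistant cells 11 were measured, with a median ratio of 0.96 and none past the size rule. They include S100A4, a calcium-binding protein linked to motility, at 8499 CPM in ABCB1-negative cells and 8851 CPM in cells with more than 5, against 1276 CPM in treatment-naïve cells.

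**Figure D4:**
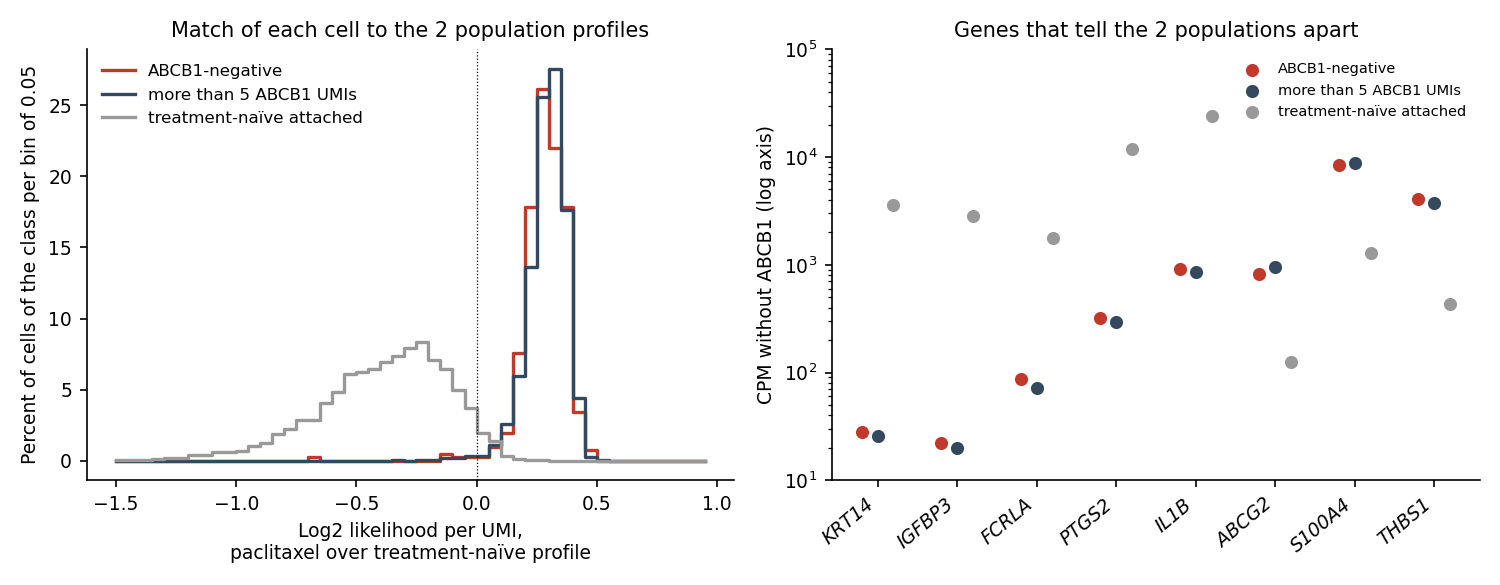
Left, percent of cells of each class by the log2 likelihood per UMI of the paclitaxel-resistant over the treatment-naïve profile, with ABCB1-negative cells, cells with more than 5 ABCB1 UMIs and treatment-naïve attached cells as lines. Medians were 0.29, 0.30 and -0.35. Right, CPM (log axis) of 8 genes that differ between the populations, where the first 2 classes lie close together and apart from treatment-naïve cells.

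Lymphocyte markers of the T and NK lineages were at or near 0 in the ABCB1-negative cells, and myeloid markers were low in both classes. Of 10 T and NK lymphocyte markers in the panel, CD3D, CD3E, CD3G, CD8A, CD4 and ZAP70 had no UMI, and the list summed to 12.3 CPM in ABCB1-negative cells against 12.7 CPM in cells with more than 5 ABCB1 UMIs. Myeloid markers summed to 293 CPM and 240.2 CPM, of which CD14 made 199 CPM and 164 CPM.

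The ABCB1-negative cells varied among themselves about as widely as the cells with more than 5 ABCB1 UMIs. Thinned to 1000 UMIs, the mitosis list took a median of 21 UMIs per ABCB1-negative cell, with 10% of cells at or below 4 and 10% above 147. In cells with more than 5 the median was 33 UMIs, with 10% of cells at or below 4 and 10% above 161. CD24 was absent from 27.7% of the thinned ABCB1-negative cells and above 5 UMIs in 32.1%, against 33.9% and 22.4% of cells with more than 5. The matrix genes took a median of 412 of 1000 UMIs in ABCB1-negative cells, with quartiles of 376 and 453, against a median of 409 UMIs and quartiles of 374 and 444 in cells with more than 5.

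The same comparison was made in the 3 other resistant populations, using cells of at least 1000 UMIs. No population is a replicate of another, and the differences between them were not tested. In doxorubicin-resistant attached cells 814 of 7032 cells (11.6%) had 0 ABCB1 UMIs, and 3 of 225 measured genes were higher (1.33%) and 7 lower (3.11%) than in cells with more than 5. In paclitaxel-resistant spheroids, with 359 ABCB1-negative cells of that depth, 28 of 203 genes were higher (13.8%) and 34 lower (16.7%). In doxorubicin-resistant spheroids, with 497 such cells, 2 of 220 were higher (0.909%) and 9 lower (4.09%). The median size of the ratio was 1.09-fold in paclitaxel-resistant attached cells, 1.05-fold in doxorubicin-resistant attached cells, 1.30-fold in paclitaxel-resistant spheroids and 1.11-fold in doxorubicin-resistant spheroids.

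The genes past the size rule among paclitaxel-resistant attached cells had these ratios elsewhere. KRT81 had a ratio of 1.04 (0.77 to 1.39) in doxorubicin-resistant attached cells and was not measured in either spheroid population. ESM1 was also lower in paclitaxel-resistant spheroids, with a ratio of 0.65 (0.59 to 0.71), and stood at 0.90 (0.85 to 0.96) in doxorubicin-resistant spheroids and 0.99 (0.91 to 1.07) in doxorubicin-resistant attached cells. CCL3 was lower in doxorubicin-resistant spheroids, with a ratio of 0.26 (0.18 to 0.37). It had 1.12 (1.03 to 1.21) in doxorubicin-resistant attached cells and was not measured in paclitaxel-resistant spheroids. CCL5 had 0.90 (0.86 to 0.94) in doxorubicin-resistant attached cells, 3.39 (3.19 to 3.60) in paclitaxel-resistant spheroids and 1.28 (1.21 to 1.35) in doxorubicin-resistant spheroids. DCN had 1.69 (1.48 to 1.92) in doxorubicin-resistant attached cells, 1.70 (1.53 to 1.89) in paclitaxel-resistant spheroids and 1.17 (1.07 to 1.27) in doxorubicin-resistant spheroids. ABCG2 was below 1 in each of the 4 populations, at 0.86 in paclitaxel-resistant attached cells, 0.89 in doxorubicin-resistant attached cells, 0.57 in paclitaxel-resistant spheroids and 0.75 in doxorubicin-resistant spheroids. The depth gap was wider in spheroids, with medians of 2274 UMIs in ABCB1-negative cells against 4220 UMIs in cells with more than 5 for paclitaxel and 2753 against 4205 for doxorubicin.

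**Figure D5:**
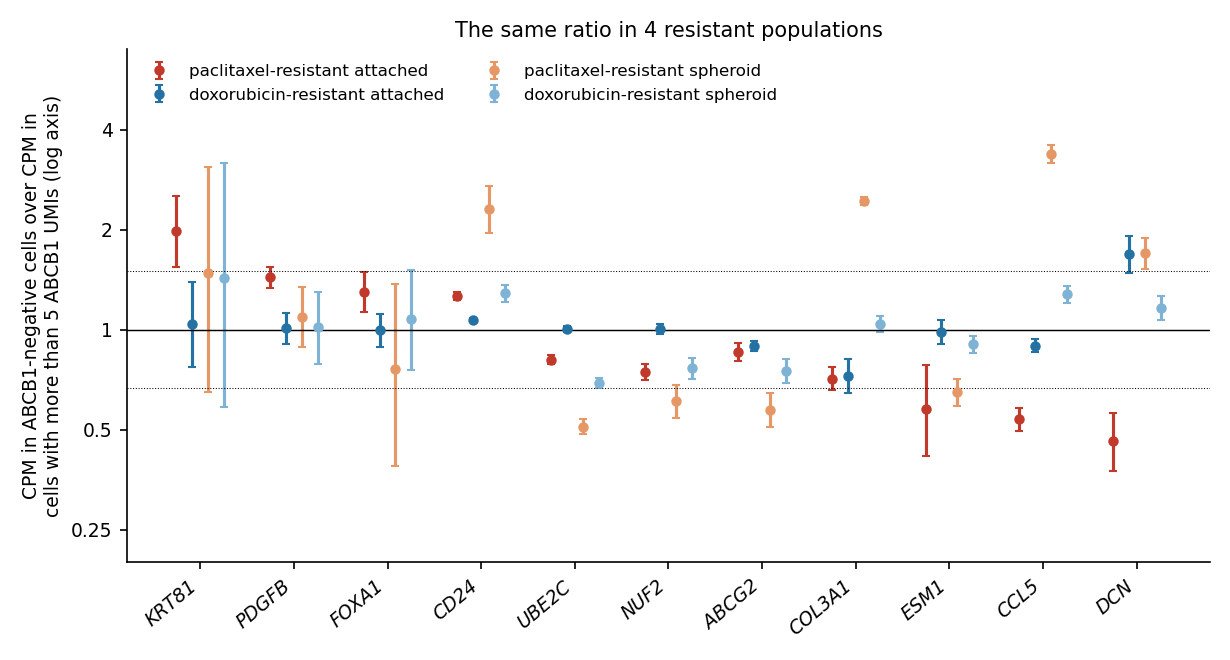
Ratio of CPM in ABCB1-negative cells to CPM in cells with more than 5 ABCB1 UMIs (log axis) for 11 genes in 4 resistant populations, with exact 95% intervals for counting error. Dotted lines mark the size rule. In paclitaxel-resistant attached cells KRT81 lies above the upper line and ESM1, CCL5 and DCN below the lower one, and DCN lies above the upper line in doxorubicin-resistant attached cells and paclitaxel-resistant spheroids.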

How the data were processed

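The deposited matrices hold whole-number UMI counts per cell and gene, which the authors made on a commercial cloud platform from BD Rhapsody targeted reads (cell label, UMI, error-adjusted molecules), with hg38 named in the submitters' processing notes. The sources used here name no aligner. The study's filter on low counts has no stated threshold, so every deposited cell was used. Which matrix holds which population was taken from file names, since the labels name the populations and tags only. The matrices hold 373 gene symbols. No cell label was shared between populations of a cartridge, and 3 ABCB1-negative cells had a label that also occurs in a spheroid matrix. Doublets were not called.

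With 1 sample per group no test across samples was possible. UMIs were summed per class and ratios of CPM got exact conditional binomial intervals, shares Clopper-Pearson and levels Poisson intervals at 95%. Python 3.11.15, numpy 2.4.6, scipy 1.17.1 and pandas 2.3.3 were used, and the code was tested on simulated data. Named genes were the 10 with the largest ratio in each direction past the size rule, ABCG2 and the genes the study singles out, and the 2 highest and lowest members of each of 17 lists. Members, lists and rules were chosen with earlier results of these data known. Alternatives covered the fold, the filter, scaling, depth, thinning, the reference class and rich cells. PCR, capture and culture variation lie outside all intervals. The intervals of ratios and levels treat summed UMIs as independent, so variation between cells lies outside them too. They are too narrow for genes concentrated in few cells, such as DCN, CCL5 and CCL3.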

Additional observations from a re-analysis of the deposited data

Results flagged for a closer look

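Among the genes past the size rule in paclitaxel-resistant attached cells, DCN and CCL5 passed it in the opposite direction in another population, and neither difference between populations was tested. CCL5 had a log2 ratio of 1.76 between ABCB1-negative cells and cells with more than 5 ABCB1 UMIs in paclitaxel-resistant spheroids (1821 and 2549 UMIs), against -0.89 in paclitaxel-resistant attached cells. DCN had a log2 ratio of 0.77 in paclitaxel-resistant spheroids (469 and 1308 UMIs) and 0.76 in doxorubicin-resistant attached cells (303 and 1192 UMIs), against -1.12 in paclitaxel-resistant attached cells. These ratios were not matched for depth, and the paclitaxel-resistant spheroid classes had medians of 2274 and 4220 UMIs. Within paclitaxel-resistant attached cells the CCL5 ratio was 1.34 in the shallowest quintile and 0.24 to 0.35 in the other quintiles. Among paclitaxel-resistant attached cells both genes were concentrated in few cells. The richest 1% of cells with more than 5 ABCB1 UMIs held 61.4% of the CCL5 UMIs and 51.5% of the DCN UMIs.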

How the results depend on the processing

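No gene past the size rule changed direction under the alternatives run. DCN passed under all of them, and KRT81 and ESM1 under all but a fold of 2. CCL5 failed at a fold of 2, in thinned cells, in cells that matched their own profile and without the richest 1% of cells of each class, an alternative chosen after seeing the data, where CCL3 failed too. The count of higher genes was 0 at a fold of 2, 2 without the richest 1%, and 3 with no filter on low counts, by the mean over cells, in thinned cells and against cells with more than 20 ABCB1 UMIs. The count of lower genes was 2 at a fold of 2, 2 without the richest 1% and 7 against cells with more than 20. The cause of these shifts was not tested. The median log2 ratio of the mitosis list (-0.28) was -0.25 with centred ratios, -0.25 with a total that left out the 5 most abundant genes, -0.055 matched for depth, -0.34 by the mean over cells, -0.33 in thinned cells, -0.24 against all cells with an ABCB1 UMI, -0.41 against cells with more than 20, -0.50 in cells that matched their own profile, -0.25 without the deepest 1% of cells and -0.39 without the richest 1%. Thinning to 1000 UMIs put 19.1% of cells at 0 ABCB1 UMIs. Weighting for depth left 19 higher and 17 lower genes in paclitaxel-resistant spheroids, against 30 and 42 over all cells there. Only 1 culture per population limits every comparison, and a 0 in a cell of median depth allows 959 CPM.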

Other observations

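Some genes outside the named lists had intervals above 1 without passing the size rule, and they were picked after their values were seen. Ratios matched for depth are not given here for them. Over all 207 measured genes, 50 had an interval above 1, KRT81 among them. NEAT1, a long noncoding RNA that scaffolds nuclear paraspeckles, had 6502 CPM in ABCB1-negative cells against 5171 CPM in cells with more than 5 ABCB1 UMIs, a ratio of 1.26 (1.23 to 1.28). After thinning to 1000 UMIs, 33.6% of ABCB1-negative cells held more than 7 NEAT1 UMIs, against 23.8% of cells with more than 5. MAPT, which encodes the microtubule-binding protein tau, had 229 CPM against 179 CPM, a ratio of 1.28 (1.13 to 1.43). MYC, a transcription factor of growth, had 22661 CPM against 20261 CPM, a ratio of 1.12 (1.11 to 1.13).

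The 97 cells with neither ABCB1 nor ABCG2 UMIs matched the paclitaxel-resistant profile in 92 cases (94.8%), against 275 of the 312 ABCB1-negative cells with ABCG2 (88.1%).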
